A study of Mus musculus with 6 samples.

Results

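The lacrimal gland bud is the epithelial outgrowth of the conjunctiva that will form the tear gland, and its normal state at E14.5 is described here from the 3 Control samples of a series of 6. They were chosen by label alone, as the samples of genotype Le-Cre, and no value was used to choose them. The study asked what the Pea3 family of ETS factors does in this bud, and the other samples, which lack that family, were not read. Each Control sample was lacrimal gland epithelium taken by laser capture from embryos of a mixed strain background that had been frozen in embedding medium, with no agent given. All 3 carried the Le-Cre transgene, in which a Pax6 enhancer drives Cre in the surface ectoderm of the eye, so none of them was a mouse without a transgene. The study's methods also allow heterozygotes of the Pea3 family as controls, whereas the labels give Le-Cre for all 3. The sources used here do not say whether a sample was 1 embryo or a pool, so the spread given below is that between these libraries and may be partly technical.

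Branched glands of this kind arise by exchange between epithelium and the mesenchyme around it. Mesenchymal Fgf10 binds the epithelial isoform of Fgfr2, the RAS and ERK kinases carry the signal, and ETS factors of the Pea3 family (Etv1, Etv4 and Etv5) are among its transcriptional outputs. Sox9 and Sox10 are needed for the lacrimal fate and for the later acini, and heparan sulphate on the cell surface shapes how the bud receives Fgf10.

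The 5 genes given beforehand as markers of the bud were high in each library. The study had named all 5 from RNA-seq of this same series, so their level here is no independent evidence on the tissue. Etv5, an ETS factor of the Pea3 family, was counted at 943, 999 and 1199 counts per 1000000 counts of the library (CPM, scaled by the TMM factors of edgeR) in replicates 1, 2 and 3. Col2a1, the chain of type II collagen, stood at 975, 1126 and 1231 CPM and Col9a1, a chain of type IX collagen, at 693, 723 and 836 CPM. Six2, a homeobox factor of the sine oculis family, stood at 327, 438 and 335 CPM, and Sox10, a SOX factor, at 384, 376 and 390.5 CPM. Every one of the 5 markers was therefore present in every library, with a ratio of the highest to the lowest library between 1.04 for Sox10 and 1.34 for Six2. By mean CPM, Col2a1 ranked 45 and Etv5 ranked 49 of 23420 gene symbols, Col9a1 104, Sox10 388 and Six2 423.

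**Figure D1:**
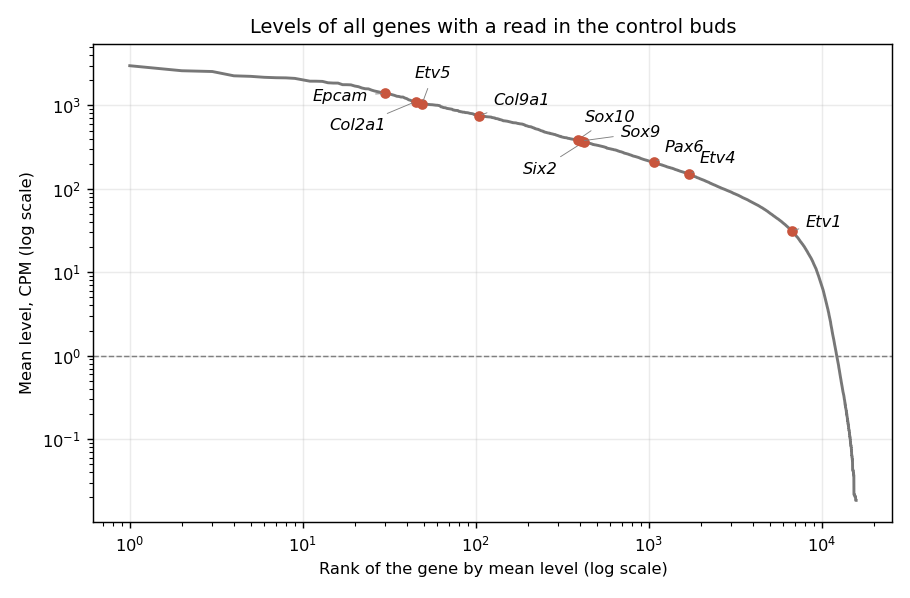
Mean level in CPM of every gene with a read in the 3 Control libraries against its rank, both on log scales, with named genes as points and a dashed line at 1 CPM. Col2a1 (rank 45) and Etv5 (rank 49) sit near Epcam (rank 30), whereas Etv1 (rank 6702) lies where the curve bends.

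The 5 genes lie on different chromosomes except for 1 pair, in GRCm38 coordinates of the GENCODE M21 annotation: Etv5 at chr16:22381309-22439719, Six2 at chr17:85684277-85688274 and Col9a1 at chr1:24177610-24252684. Sox10, at chr15:79154908-79165240, and Col2a1, at chr15:97975602-98004695, share chromosome 15. The reads counted for each gene are those over its exons.

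Etv5 and Six2 were also the transcription factor genes of the highest level per length, so the DNA before their starts is shown. The RefSeq table for GRCm38.p6 places a pair of starts for Etv5, at the upstream and the inner promoter, and 1 for Six2, all on the minus strand. Each line gives the 250 bases before a RefSeq start, from 5′ to 3′. The GENCODE spans given above reach further upstream, into the windows of the upstream Etv5 start and of Six2. Capitals mark the letters GGAAGT, searched on both strands, which hold the GGAA core that ETS factors such as Etv5 bind. Other occurrences of GGAA were neither marked nor counted.
Etv5 upstream start, chr16:22439571-22439820: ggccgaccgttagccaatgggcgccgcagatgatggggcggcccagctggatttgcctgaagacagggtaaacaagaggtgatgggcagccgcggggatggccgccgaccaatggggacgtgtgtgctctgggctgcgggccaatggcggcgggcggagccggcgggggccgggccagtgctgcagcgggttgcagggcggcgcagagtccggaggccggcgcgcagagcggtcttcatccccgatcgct
Etv5 inner start, chr16:22438369-22438618: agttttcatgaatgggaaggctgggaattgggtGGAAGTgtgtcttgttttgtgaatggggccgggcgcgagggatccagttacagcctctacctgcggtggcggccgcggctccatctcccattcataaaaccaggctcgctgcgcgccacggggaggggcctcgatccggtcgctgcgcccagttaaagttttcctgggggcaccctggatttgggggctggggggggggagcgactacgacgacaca
Six2 start, chr17:85688255-85688504: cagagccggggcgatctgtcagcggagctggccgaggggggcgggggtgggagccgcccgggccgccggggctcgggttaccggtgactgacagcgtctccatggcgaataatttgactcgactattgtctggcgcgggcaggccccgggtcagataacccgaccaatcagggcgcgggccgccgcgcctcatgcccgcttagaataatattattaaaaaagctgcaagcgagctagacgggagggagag
The letters GGAAGT occurred 1 time before the inner Etv5 start, beginning 217 bases ahead of it, and not in the other 2 windows. They occur in 19.7% of the 32851 windows of the same length in that table. The counts do not separate the starts of Etv5, so the level of each is not known.

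The libraries were of like depth, with 15534868 to 17860140 counts, and 3 counts, taken as the limit of detection, were worth 0.168 to 0.193 CPM. The 100 largest genes took 12.2 to 13.0% of the counts of a library, and the largest single gene 0.283 to 0.361%. Over the 11557 expressed genes, Pearson's r of log2(CPM + 1) was 0.972 for replicates 1 and 2, 0.970 for 1 and 3, and 0.982 for 2 and 3. Raw counts of each pair differed by far more than sampling noise, with a chi-square per degree of freedom of 15.5 to 32.02, and no pair was a repeat of identical values. That test sets the pairs against counting noise alone and does not show whether the libraries came from separate RNA, so each was counted as a sample by its label. The common coefficient of variation between libraries, as edgeR estimates it for biological spread, was 0.207. Replicate 1 stood apart from the other two in that estimate, which was 0.163 without it, and in surface epithelial genes given below. Genes of the Y chromosome such as Ddx3y (79.2, 60.5 and 81.7 CPM) were read in all 3 libraries, and Xist, the RNA of the inactive X, had 0, 7 and 0 reads.

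A gene was called expressed at 1 CPM or more in every library. Of all 23420 gene symbols 49.3% were expressed (11557 genes), 2390 reached 100 CPM in every library and 7581 had no read in any. With that share of all genes as the background, 326 of 702 listed transcription factors were expressed (46.4%), 140 of 218 receptors (64.2%), 103 of 244 ligands and secreted modulators (42.2%) and 120 of 207 matrix genes (58.0%). The median level over all members of a list was 0.862 CPM for transcription factors, 10.4 CPM for receptors, 0.943 CPM for ligands and 3.71 CPM for matrix genes, beside 1.62 CPM over all genes. In bulk tissue a low level in every cell cannot be told apart from a high level in few cells.

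The most abundant transcripts included several of protein synthesis, folding and glycolysis, beside others of unlike function. Hsp90ab1, a cytosolic chaperone, led with 2795, 3037 and 3134 CPM. Atp5b, a subunit of the ATP synthase, followed with a mean of 2602 CPM and Hspa5, the chaperone of the endoplasmic reticulum, with 2262 CPM. Others among the 20 genes with the highest mean CPM were Eif4g2, Pkm, Eif5a, Ldha, Eef1a1, Hnrnpk, Nedd4, H3f3b, Actb, Pdia3, Hnrnpa2b1, Slc7a5, Hsp90b1, Cnbp and Gapdh, with means from 2171 down to 1706 CPM. Rn45s, the ribosomal RNA precursor, came after Hsp90ab1 and Atp5b on its mean but was the exception in spread, at 863, 3635 and 3142 CPM. Replicate 1 was the low library for it, and mean CPM without replicate 1 was 3367.

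A long transcript yields more reads than a short one at the same number of molecules, so levels were compared between genes as CPM per kb of exon. On that scale Ftl1, the ferritin light chain, was highest at 1181 ± 111 CPM per kb (SD, n = 3), followed by the cytokine Mif at 997 ± 186 CPM per kb. Epcam, the adhesion molecule of simple epithelia, ranked 14 of the 22994 genes with a length, at 635 ± 42.4 CPM per kb. All 25 cell cycle genes listed were expressed, with a summed level of 8197, 8167 and 8063 CPM. Ccnd2, cyclin D2, stood at 1299, 1226 and 1312 CPM, whereas Ccnd1, cyclin D1, stood at 160.4, 422 and 187 CPM and was highest in replicate 2.

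The transcription factors of the bud were led by few genes of each family. Etv5 had the highest level of all 702, at 229.8, 244 and 292 CPM per kb, and its other family members were lower. Etv4 stood at 58.2, 41.3 and 44.9 CPM per kb and Etv1 at 2.5, 2.13 and 2.47 CPM per kb, so that the 3 genes did not overlap in any library. Within a library Etv5 was 3.95 to 6.51 times Etv4 and 91.8 to 118 times Etv1 on the scale of CPM per kb. Length weighs on the second ratio, since in CPM without length Etv5 was 33.2 times Etv1, as a geometric mean. Of the 25 ETS genes 18 were expressed, and Erg, Fev, Spib and Spic had no read.

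Six2 was second at 154, 207 and 158 CPM per kb. Its range overlapped that of Id2, an inhibitor of basic helix-loop-helix factors, at 146, 175 and 192 CPM per kb, so the order of the pair is not set by these libraries. Eya2, a co-activator used by factors of the Six2 family, stood at 81, 57.7 and 60.6 CPM per kb, while Six6 and Eya4 had no read.

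Cebpb, a C/EBP factor, stood at 155, 144 and 138 CPM per kb and Sox10 at 126, 123 and 128. Id3, an inhibitor of the same class as Id2, stood at 159, 139.8 and 77.5 CPM per kb, lowest in replicate 3. Sox9 stood at 98.8, 95.1 and 77.3 CPM per kb, below Sox10 in every library by a ratio of 1.27 to 1.66. Without the division by length this order did not hold, with Sox9 at 409, 393 and 319.6 CPM and Sox10 at 384, 376 and 390.5. Sox8, the remaining member of their subgroup, stood at 0.886, 2.47 and 2.58 CPM per kb. Sox2, Sox14 and Sry had no read.

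Others among the 12 highest were Tcf3 (118 CPM per kb), a partner that ID proteins sequester, Trp53 (113), the p53 tumour suppressor, Myc (90.6), a growth regulator, and E2f4 (71.6), a cell cycle repressor. Their ratio of highest to lowest library was 1.04 to 1.16. The highest members of other families were Nr2f6 among nuclear receptors (57.8 CPM per kb), Osr2 among zinc finger factors (55.2), Cbfb in the group of GATA, RUNX and T-box genes (44.6), Foxc2 among forkhead factors (42.4), Sp3 among KLF and SP factors (34.0) and Tgif1 among TALE, LIM and POU homeobox genes (31.0).

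**Figure D2:**
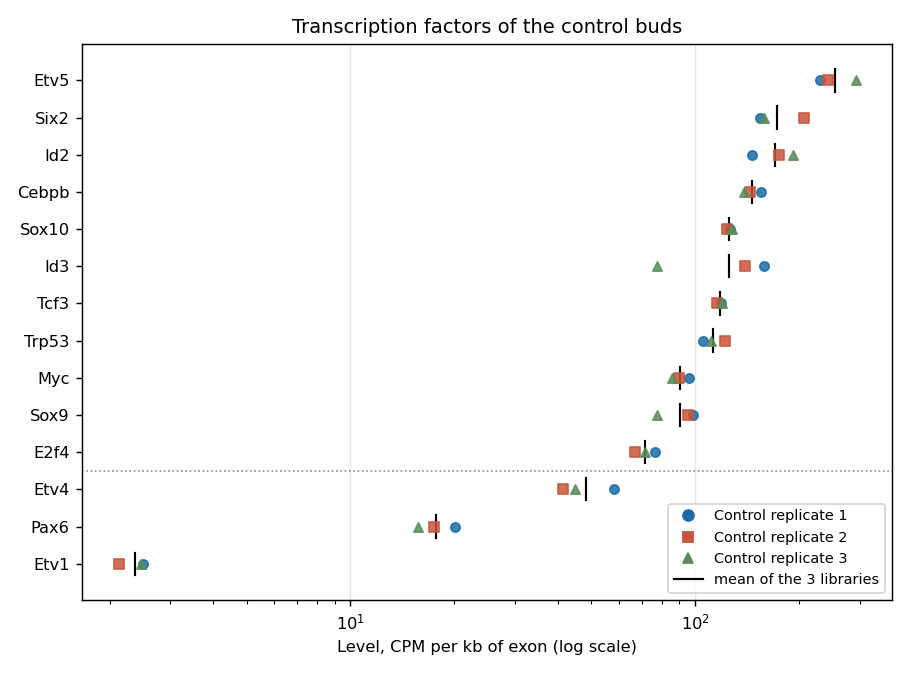
Level in CPM per kb of exon (log scale) of 11 of the 12 transcription factors with the highest mean, above the dotted line, and of Etv4, Pax6 and Etv1 below it. Points are the 3 Control libraries and bars their means: Etv5 leads at 255 CPM per kb, and Id3 shows the widest spread of those above the line.

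Most homeobox genes of the HOX, PRD and NKL classes were not expressed. Of 42 HOX and CDX genes none was expressed and 40 had no read, while Hoxb2 had 8 reads and Hoxb1 had 1 read, all in replicate 1. Of 70 genes of the PRD and NKL classes 4 were expressed, led by Otx1 at 27.6, 24.9 and 20 CPM per kb, with Barx2, a factor of lacrimal and ocular surface epithelium, at 14.6, 28 and 21.1. The ranges of the pair overlapped, and Barx2 was the higher in replicates 2 and 3. Dlx3 and Alx1 were the remaining pair.

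Pax6, the master regulator of eye ectoderm, was the single expressed PAX gene of 9, at 236, 204 and 183 CPM. Pax2, Pax3, Pax4, Pax5, Pax7, Pax8 and Pax9 had no read and Pax1 had 1 read. In all 220 of 702 listed transcription factors had no read in any library, a share close to that of all genes (7581 of 23420). Among them were the regulators of muscle Myod1 and Myog, of neurons Neurog1, and of gut and liver Foxa2 and Hnf4a. A further 156 had reads but missed 1 CPM in some library, such as Lef1, an effector of Wnt signals, with 15, 2 and 5 reads.

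Ovol1, a zinc finger factor of surface epithelia, was the one listed transcription factor with a mean of at least 10 CPM whose highest library was at least 3 times the lowest, among 247 that reached that mean. Of all genes at that mean 0.975% met the same rule (92 of 9433). Ovol1 stood at 29.6, 7.58 and 9.27 CPM and was high in replicate 1.

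The 3 receptors with the highest mean per kb bind matrix, although integrins as a family were not high, with 15 of 28 expressed and a median of 3.25 CPM beside 140 of 218 and 10.4 CPM for all listed receptors. Itgb1, the common beta chain of integrins, stood at 154, 151 and 175 CPM per kb, Itgb5, a beta chain that binds vitronectin, at 92.4, 87.1 and 93.6, and Dag1, the laminin receptor dystroglycan, at 74.3, 79.4 and 85.1. The 3 genes did not overlap in level. Itga9, an alpha chain that binds tenascin, followed at 40.7, 44.2 and 60.3 CPM per kb and Ddr1, a collagen receptor kinase, at 46.0 ± 2.52 CPM per kb (SD, n = 3).

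Receptors for Wnt signals were the most completely expressed large family, 19 of 21 genes. Fzd9, a Frizzled receptor, stood at 64.7, 72.1 and 77.5 CPM per kb and Ptk7, a co-receptor of planar polarity, at 39.98, 47.1 and 49.8. The other genes among the 12 highest were F2r, the thrombin receptor (58.4 CPM per kb), Tnfrsf19, a receptor of the TNF family (51.3), Erbb2, a kinase partner of EGF receptors (51.2), Smo, the transducer of hedgehog signals (45.7), and Plxnb2, a semaphorin receptor (45.2). Erbb3, which pairs with Erbb2, was at 43.4 ± 8.77 CPM per kb, whereas Egfr was at 4.08 ± 0.42. Within a library Erbb2 was 10.9 to 13.9 times Egfr on that scale.

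Of the receptors for FGF, Fgfr2 and Fgfr1 were among the 37 listed receptors that reached 100 CPM in every library. Per kb Fgfr2 ranked 27 and Fgfr1 35 of 218. Fgfr2, the receptor for Fgf10 in this epithelium, stood at 24.6, 22.4 and 22.9 CPM per kb, and Fgfr1 at 14.8, 19.6 and 22.9. The pair was level in replicate 3, and Fgfr2 was higher in replicate 1 by a ratio of 1.66. The counts do not separate the epithelial isoform of Fgfr2 from the mesenchymal one. Fgfrl1, a receptor without a kinase, stood at 17.1 ± 3.51 CPM per kb and Fgfr3 at 9.56, 2.04 and 1.43 CPM, high in replicate 1. Fgfr4 had 65, 17 and 6 reads.

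The highest member of each remaining receptor family was Ephb4 among Eph receptors (37.1 CPM per kb), Bmpr1a among BMP and TGF-beta receptors (30.9), Ifngr2 among cytokine receptors (29.2), Kit among receptors of the PDGF and VEGF group (7.29) and Notch1 among Notch receptors (5.46). Of the 17 receptors with no read, well-known ones were Kdr, Tie1 and Robo4 of endothelium, Flt3 of blood cells, Musk of muscle, and the muscarinic receptors Chrm2 and Chrm5. Chrm1, another muscarinic receptor, was expressed at 27.4, 43.4 and 45.2 CPM. Among 109 receptors at a mean of at least 10 CPM, Cxcr4 and S1pr3 varied by 3 times or more. Cxcr4, a chemokine receptor, was low in replicate 1 (11.1, 41.4 and 33.7 CPM), and S1pr3, a sphingosine phosphate receptor, was high there (102, 31.5 and 26.5 CPM).

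The ligands were led by Mdk, the heparin-binding growth factor midkine, at 618, 688 and 571 CPM per kb. Sfrp1, a secreted Wnt antagonist, stood at 183, 181 and 233 CPM per kb and did not overlap with Mdk or with the gene after it. That gene, Sema3b, a secreted semaphorin, had a wide spread of 48.2, 103 and 141 CPM per kb and overlapped with the 2 PDGF ligands that followed, Pdgfa (83.7, 116 and 87.6) and Pdgfc (77.0, 81.3 and 85.7).

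The other genes among the 12 highest were Twsg1, a BMP binding protein (65.3 CPM per kb), Igf2, a fetal growth factor (62.9), Nrtn, a ligand of the GDNF family (58.1), Wnt5b (51.3), the ephrins Efna1 (50.1) and Efna4 (44.7), and Sema3f (47.4). All 8 ephrins were expressed. Of 19 Wnt genes 7 were, and Wnt6 at 47, 36.9 and 26.9 CPM per kb came after Wnt5b at 59.3, 54.5 and 39.98, with overlapping ranges. The highest members of other families were Bmp7 among BMP and TGF-beta ligands (33.9 CPM per kb), Jag2 among Notch ligands (30.1), Ltb among TNF ligands (8.96), Cx3cl1 among chemokines (7.69), Fgf1 among FGFs (7.13) and Tgfa among EGF ligands (2.48). Jag2 was 4.17 to 6.16 times Jag1 within a library.

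Few genes of the FGF family were expressed, all at a low level. Fgf1 stood at 37.5, 42.2 and 37.1 CPM and Fgf9 at 34.4, 23.5 and 33.4 CPM, and Fgf20 and Fgf13 had means of 3.78 and 4.28 CPM. The remaining 18 of 22 were not expressed, and Fgf2, Fgf3, Fgf4, Fgf5, Fgf6, Fgf8, Fgf14, Fgf16, Fgf17, Fgf21 and Fgf23 had no read. Fgf10 had 4, 1 and 17 reads and Fgf7 had 0, 0 and 3 reads. Replicate 3, with the most Fgf10 reads, was also the library with the most reads of mesenchymal collagens, given below, and the part of mesenchyme in these reads was not tested.

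Hedgehog ligands were not detected. Shh, Ihh and Dhh had no read in any library, which allows up to 0.168, 0.184 and 0.193 CPM for each gene by counting error alone. Their receptors were all expressed, with Smo at 229.6, 266 and 275 CPM, Boc at 70.7, 97.8 and 97.5 and Gas1 at 88.8, 77.9 and 71. Ptch1, the receptor that hedgehog signals raise, was at 10.3, 8.69 and 4.80 CPM, and Gli1, another target of the pathway, had 4, 6 and 0 reads.

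Of the 57 ligands with no read, well-known ones beside the FGF and hedgehog genes were Wnt1, Wnt3a, Grem1, Rspo3, Nodal, Dll4, Angpt1, Il6 and Ccl2. Wnt7b, Dlk1 and Dlk2 varied by 3 times or more among 64 ligands at a mean of at least 10 CPM. Wnt7b stood at 19.8, 7.58 and 4.93 CPM and Dlk2, a Notch regulator, at 20.3, 9.25 and 5.90, both high in replicate 1. Dlk1, its relative, stood at 4.09, 13.1 and 26.8 CPM, high in replicate 3.

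Feedback genes of the FGF pathway ranged from high to low in the bud. Of 44 genes listed for FGF and ERK signalling 43 were expressed and Spry3 had no read. Dusp6, the phosphatase of ERK, stood at 238, 269 and 259.6 CPM per kb, a range that overlapped with that of Etv5. Spry1, a feedback inhibitor, stood at 95, 92 and 94.3 CPM per kb, and the membrane proteins Flrt3 and Flrt2 at means of 72.6 and 66.2. Other inhibitors of the Spry, Dusp and Spred families were lower. Dusp7 came next at a mean of 39.4 CPM per kb, then Spred1 at 24.9 and Spry2 at 18.2. Further down were Spry4 at 9.37, Dusp4 at 5.17 and Spred2 at 4.98. Of 30 genes of heparan sulphate synthesis 23 were expressed, led by Hs3st1, a 3-O-sulphotransferase, at 65, 67 and 71 CPM per kb. Sulf2, which removes 6-O-sulphate, was at 57.9 ± 2.22 CPM per kb and Hs3st3b1, another 3-O-sulphotransferase, at 46.1 ± 9.80. Hs3st6, of the same family, was at 18.5, 56.0 and 34.7 CPM, and of the heparan sulphate genes with a mean of at least 10 CPM it varied most.

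The matrix genes combined proteins of basement membrane with collagens best known from cartilage. Sparc, a collagen-binding matricellular protein, stood at 237, 258 and 236 CPM per kb, Mfap2, a microfibril protein, at 247, 235 and 216, and Gpc3, a glypican that carries heparan sulphate, at 199, 236 and 202. The range of Mfap2 overlapped with those of the other two. Next came Col9a3 at 194, 192 and 198 CPM per kb, Col9a1 at 137, 143 and 165 and Col2a1 at 105, 122 and 133.

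The other genes among the 12 highest were Mmp2, a gelatinase (104 CPM per kb), Mia, a small protein first known from melanoma and cartilage (102), the syndecans Sdc1 (91.0) and Sdc4 (74.0), Fbln1, a fibulin (62.9), and Col18a1, a collagen of basement membranes (57.4). Lamc1, the common laminin gamma chain, led its family at 49.6 CPM per kb, and Col8a2 led the remaining collagens at 21.2 CPM per kb.

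**Figure D3:**
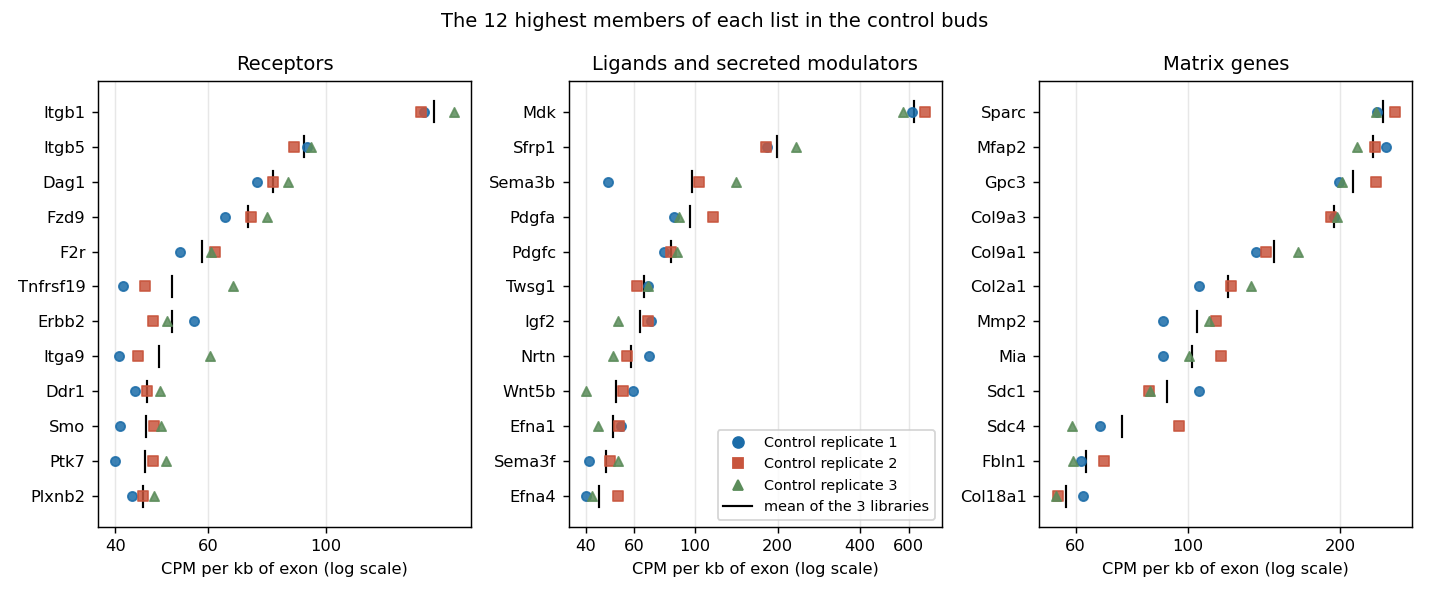
Level in CPM per kb of exon (log scales that differ between panels) of the 12 highest receptors, ligands and matrix genes in the 3 Control libraries, with bars at the means. Itgb1 (160.2 CPM per kb), Mdk (626) and Sparc (243) lead their panels, and Sema3b shows the widest spread among the ligands.

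The chains of collagen IX were read at unequal levels. Collagen IX is built of 3 different chains, and Col9a2 stood at 7.25, 6.77 and 8.27 CPM per kb. Within a library Col9a1 was 18.9 to 21.1 times and Col9a3 23.9 to 28.3 times Col9a2 on that scale. With the length of the longest transcript in place of all exons the ratios were 24.9 and 31.4, as geometric means. These chains were singled out after their values had been seen.

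Some other genes of cartilage were absent or low beside those collagens. Acan, the aggrecan of cartilage, had no read in any library, which allows up to 0.168, 0.184 and 0.193 CPM by counting error. Matn1, a matrilin, had 0, 3 and 0 reads, Comp 0, 5 and 9, Col11a2 10, 1 and 0 and Col10a1 1, 0 and 1. Of 16 listed cartilage genes 8 were expressed (50%, beside 49.3% of all genes), so the list as a whole was not low. Col2a1, Col9a1 and Sox9 were not on that list. Beyond Col9a3 its highest members in CPM were Sox6, Col9a2 and Col11a1, with means from 20.4 to 23.9. In the matrilin and cartilage group Ucma was the highest per kb, at 3.69, 4.74 and 7.26 CPM per kb, whereas in CPM it was below Matn2, with means of 4.62 and 11.4 CPM.

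Of the 27 matrix genes with no read, well-known ones beside Acan were Ncan, Tnr, Tnxb, Has1, Mmp3, Mmp7, Mmp8 and Mmp13. Col3a1, Thbs2, Postn and Efemp1 varied by 3 times or more among 78 matrix genes at a mean of at least 10 CPM. Col3a1, the type III collagen of mesenchyme, stood at 2.93, 6.35 and 53.1 CPM and Postn, periostin, at 2.49, 9.31 and 19.1, both highest in replicate 3. Thbs2, thrombospondin 2, stood at 14.3, 4.69 and 18.2 CPM, and Efemp1, a fibulin, at 23.6, 8.02 and 7.26, high in replicate 1.

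The tissue label was then set beside markers of cell types that a captured bud could hold. All 11 genes of simple and general epithelium were expressed, with a summed level of 3763, 3261 and 3145 CPM, led by Epcam. Krt8 and Krt18, the keratin pair of simple epithelia, stood at 665, 383 and 332 CPM and at 531, 324 and 281 CPM. Of 24 genes of acinus and duct 12 had no read, among them Lyz1, Ltf, Car6, Pip, Amy1, Dcpp1, Dcpp2 and Dcpp3, and the water channel Aqp5 had 11, 0 and 2 reads, while Lpo, lactoperoxidase, stood at 2.60, 1.91 and 2.53 CPM. The 8 that were expressed were led by Tmem59l at 37.5 ± 7.50 CPM per kb and included the ion carrier Slc12a2 at 94.0, 206 and 135 CPM.

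Surface keratins set replicate 1 apart. The 14 genes of conjunctiva and ocular surface summed to 1191, 348 and 227 CPM, of which 6 were expressed, and the mean without replicate 1 was 287 CPM. Krt15, a keratin of basal surface epithelium, stood at 706, 136 and 62.9 CPM, Krt19 at 315, 33.2 and 16.0 CPM, and Krt7 at 53.6, 13.9 and 7.33 CPM. The 21 epidermal genes summed to 1523, 919 and 869 CPM, and 15 of them were expressed (71.4%, beside 49.3% of all genes). Of 12 hair placode genes 7 were expressed (58.3%), with a sum of 161, 172 and 182 CPM. Krt5 at 356, 143 and 83.0 CPM and Krt17 at 45.8, 8.26 and 9.79 CPM were high in replicate 1.

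Krt14, the usual partner of Krt5, did not share that order, at 98.0, 72.4 and 91.3 CPM. Lor and Ivl, products of cornified epidermis, were near the limit of detection, at 4, 2 and 0 reads and at 1, 0 and 0. So were Krt12 of cornea, at 0, 1 and 0 reads, and Krt13 of conjunctiva, at 4, 0 and 0. The epidermal keratins Krt10 and Krt1 were expressed, at 9.62, 9.50 and 7.97 CPM and at 4.975, 2.28 and 1.88 CPM. Of 52 keratin genes 12 were expressed and 20 had no read.

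Lens genes set replicate 2 apart. The 21 lens genes, of which 14 were expressed, summed to 419.7, 1239 and 207 CPM, with a mean of 313.5 CPM without replicate 2. Cryaa, the lens chaperone, stood at 117, 586 and 92.8 CPM and Cryba1 at 49.6, 202 and 36.8 CPM. Crybb1 went its own way, at 161, 170.4 and 17.3 CPM, low in replicate 3. All 7 lens genes with a mean of at least 10 CPM varied by 3 times or more, and each was highest in replicate 2, against 22 of the 92 such genes overall. The part of lens tissue in these libraries was not tested.

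Genes of periocular mesenchyme were expressed in a share near that of all genes, 9 of 21 (42.9%) beside 49.3%. The list summed to 355, 398.5 and 431 CPM. That sum came mostly from Foxc1 (214, 227 and 183 CPM) and Foxc2 (114, 131 and 102 CPM), forkhead factors also counted above. Among other mesenchymal genes, Twist1 had 6, 14 and 12 reads and Thy1 had 0, 1 and 0, while Pdgfra was expressed at a low level, 2.76, 2.22 and 1.62 CPM. Col3a1 and Postn, also on the list, were expressed at means of 20.8 and 10.3 CPM and were highest in replicate 3. Replicate 3 held the most Col1a1, at 1.82, 4.69 and 18.9 CPM, and Lum, at 6, 23 and 129 reads.

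Other cell types left few reads. Genes of immune cells summed to 31.8, 1.05 and 25.1 CPM, with Csf1r of macrophages at 195, 0 and 114 reads, so replicate 2 held almost none. Red cell genes summed to 119.7, 46.2 and 36.6 CPM, almost all from Hbb-y, the embryonic globin, while Hba-a1 and Hba-a2, a pair of near-identical copies that shared reads cannot tell apart, had no read. Endothelial genes had 1 expressed member of 12, Egfl7, and Cdh5, Kdr, Tie1 and Emcn had no read. No muscle gene of 12 was expressed, and the summed level was 0.995, 5.06 and 3.18 CPM.

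Sox10 and Erbb3 are also genes of Schwann cells, and Kit is one of melanocytes. Mbp, a myelin gene of Schwann cells, stood at 81.4, 61.3 and 68.8 CPM. Beside Erbb3 and Mbp, the other 12 of 14 Schwann and neural genes were not expressed, with Cdh19 and Sox2 at 0 reads. Of 8 melanocyte genes 2 were expressed (25%), and Dct, Tyr and Tyrp1 had no read. The list summed to 71.4, 80.95 and 54.4 CPM, most of it from Kit at 66.1, 77.5 and 51.2 CPM. Of 10 retinal genes Rlbp1 alone was expressed, at 33.7, 45.8 and 53.3 CPM, and Rax, Crx and Otx2 had no read.

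**Figure D4:**
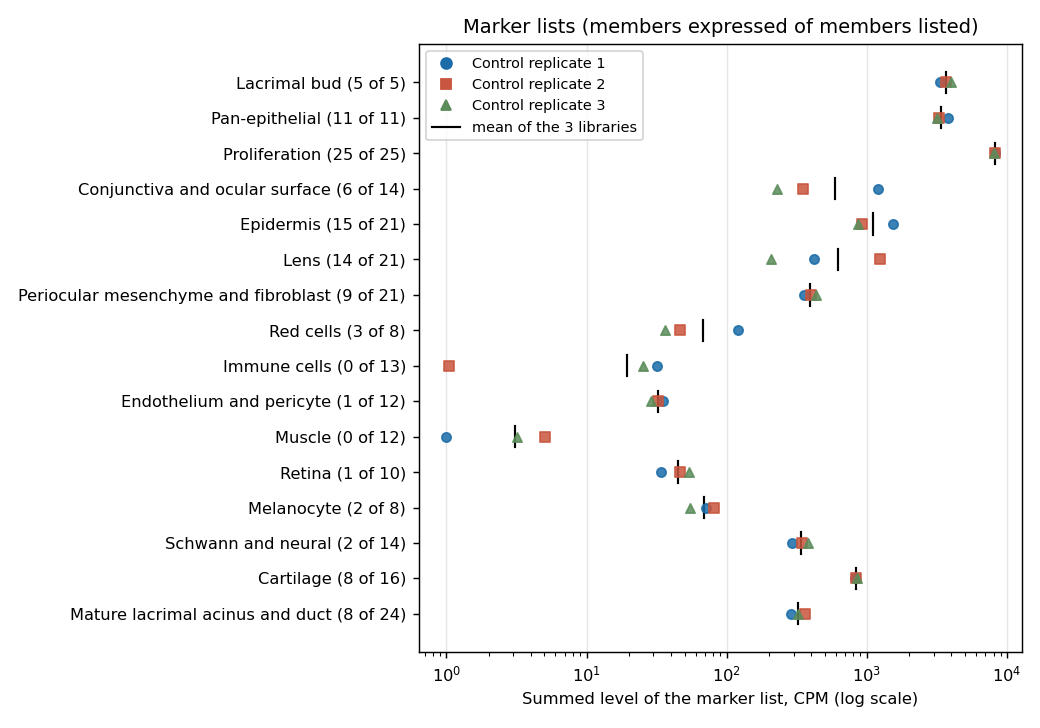
Summed CPM (log scale) of lists of marker genes in the 3 Control libraries, with the number of expressed members in brackets and bars at the means. The hair placode, sex and stress lists are not drawn. The bud, epithelial and proliferation lists lie close together in the 3 libraries, as do those of cartilage, endothelium and mesenchyme. Conjunctival genes are highest in replicate 1 (1191 CPM), lens genes in replicate 2 (1239 CPM) and immune genes lowest in replicate 2 (1.05 CPM).

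Between the libraries, the 10 genes of the largest dispersion among those with a mean of at least 50 CPM fell into few kinds. Krt19, Krt15, Adh1, an alcohol dehydrogenase, and S1pr3 were highest in replicate 1. The crystallins Crybb1, Cryaa and Cryba1 were highest in replicate 2. Cap1 (16.1, 108 and 105 CPM), Gm1821 (37.6, 228.5 and 214 CPM) and Paip1 (18.7, 94.7 and 82.1 CPM) were low in replicate 1, as Rn45s was. Of the 92 genes with a mean of at least 10 CPM that varied by 3 times or more, 49 were highest in replicate 1, 22 in replicate 2 and 21 in replicate 3. The bud markers Etv5, Six2, Col2a1 and Col9a1, 4 of the 5, were also lowest in replicate 1, with ratios of highest to lowest library from 1.21 to 1.34.

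**Figure D5:**
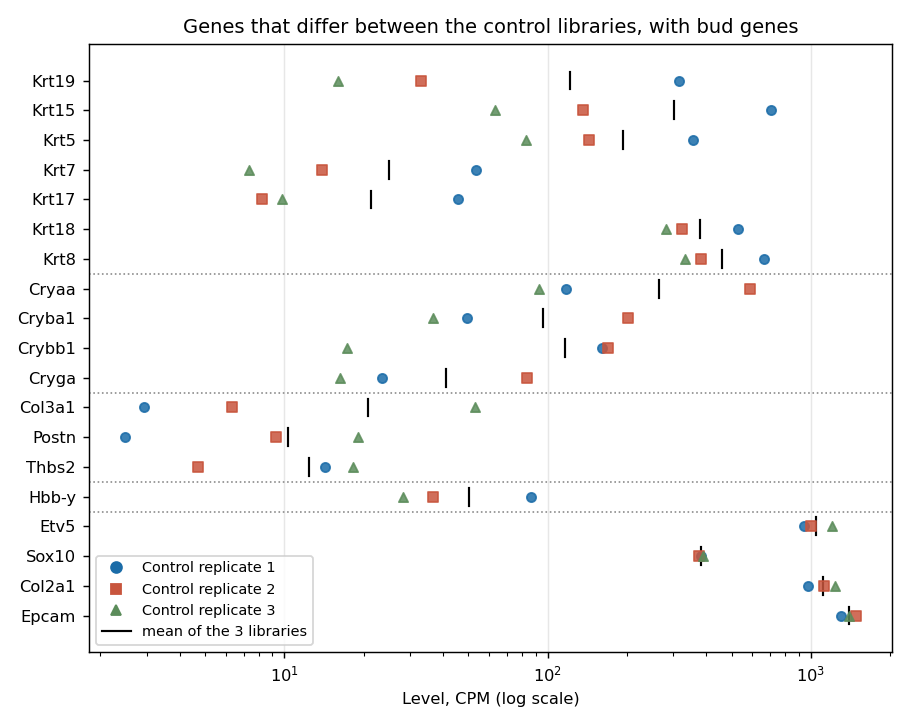
Level in CPM (log scale) of keratins, lens crystallins, mesenchymal matrix genes, an embryonic globin and 4 bud genes in the 3 Control libraries, with bars at the means and dotted lines between the kinds. Krt15 spans 62.9 to 706 CPM and Cryaa 92.8 to 586 CPM, while Sox10 spans 376 to 390.5 CPM.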

How the data were processed

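RNA of laser-captured epithelium was amplified (Ovation RNA-seq System V2) and sequenced after poly-A selection. The authors deposited raw read counts per gene symbol, 1 table per sample, and their processing notes name bcl2fastq 2.17, STAR 2.5.2b, featureCounts 1.5.0-p3, DESeq and mm10, with no setting for strand or for shared reads given in the sources used here, so antisense partners and near-identical copies may share reads. Amplification and transcript length can shift levels between genes.

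Counts of the 3 Control libraries were scaled to CPM with TMM factors of edgeR 4.0.16 (R 4.3.3), which were 0.993 to 1.01, and divided by the length of all exons of a gene in GENCODE M21 (GRCm38), matched for 22994 of 23420 symbols (98.2%), 1257 of them through an older symbol. The dispersion came from estimateDisp with an intercept only, tested on simulated counts. No groups were compared, so no p-value was computed.

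Members and gene lists were chosen with earlier results of these data known. Named are the bud markers and their relatives, the 20 most abundant genes, the 12 highest expressed members of the transcription factor, receptor, ligand and matrix lists per kb, the highest of each family, members with no read (examples where over 15), members at a mean of 10 CPM or more that varied by 3 times, and the 10 most dispersed genes. Other genes were named after their values were seen, and a few results under the rule are not reported here. List symbols with no row in the tables were skipped, though some of those genes (Ctgf, Cyr61 and Lect1, for example) were counted under the spelling the tables use. Intervals and detection limits of 3 counts cover counting error only.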

Additional observations from a re-analysis of the deposited data

How the results depend on the processing

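The number of expressed genes was 9993 at 5 CPM, 12077 at 0.5 CPM, 12113 when 2 of 3 libraries sufficed, and 11727 to 11770 with 1 library left out. Only the ligand count moved by more than 1.5 times among the counts tried, from 103 to 68 at 5 CPM. Expressed transcription factors, receptors and matrix genes were 269, 116 and 84 at 5 CPM. Plain library totals, size factors of DESeq2 1.42.0 and thinning to the smallest library left each count within 1.5 times of its value. The coefficient of variation between libraries was 0.289 without a filter on low counts and 0.163 to 0.229 with 1 library left out, lowest without replicate 1. Levels of the 119 named genes moved by at most 1.03% with plain totals and 0.123% with size factors, and by up to 79.9% with 1 library left out. Without replicate 1 mean CPM was 24.4 for Krt19, 98.9 for Krt15, 38.6 for Adh1 and 28.8 for S1pr3, without replicate 2 it was 105 for Cryaa and 43.3 for Cryba1, and Crybb1 was 166 without replicate 3. By CPM without length 8 of the 12 highest transcription factors, 10 of 12 receptors, 8 of 12 ligands and 8 of 12 matrix genes stayed among the 12 highest. With the longest transcript as length, an alternative added after seeing the data, 10, 10, 11 and 12 did. A gene with no read may lie below 0.168 to 0.193 CPM, and 8525 genes, in place of 7581, had at most 3 reads in all. No paired analysis was possible because a single group was described and no test was run.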
